A study of Mus musculus with 931 samples.

Results

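The genes described here are 10 transcription factors of mouse pancreatic islet cells: Pdx1, Nkx6-1, Mnx1, Pax4, Nkx2-2, Neurod1, Isl1, Pax6, Rfx6 and Foxa2. They were chosen by gene symbol, and all 10 were found among the 40824 gene rows of both the bulk and the single-cell count table. The study followed insulin-producing β cells and glucagon-producing α cells at 7 stages, embryonic day E17.5 and postnatal days P0, P3, P9, P15, P18 and P60, with no α cells analysed at P3. The bulk table holds 14 poly(A) RNA libraries, 2 for each stage, each from a pool of β cells sorted by their Ins1-RFP signal. Single cells were read with Smart-seq2, a whole-transcript method without molecular identifiers. Of the 917 cells, 866 single-hormone cells not selected for proliferation enter the comparisons: 538 β cells (25 batches) and 328 α cells (divided over 20 batches).

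All groups come from reporter mice of mixed background. β cells carried the Ins1-RFP reporter on C57BL/6 and C3H, and α cells carried Gcg-Cre and Rosa-RFP on C57BL/6, CBA/J and C3H. The Ins1-RFP reporter marks cells that use the insulin 1 gene. In Gcg-Cre; Rosa-RFP mice the Cre switches on a lasting red label, so a cell stays red once the glucagon gene has been used. Smaller sets of selected cells were 4 cells at P0 labelled hormone-negative, from Ngn3-GFP mice (C57BL/6 and C3H) and sorted as Ngn3-GFP+, with Ins1 reads in all 4 (49.0 to 8447 CPM), 21 β cells enriched for proliferation at P0 and P9, and 26 cells with more than 1 hormone. Sampling was by batch, and the labels name no animal, so p-values measure the spread between batches or libraries, which may be technical in part. Mouse line, background and cell type changed together between β and α cells and cannot be told apart.

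Islet endocrine cells arise from progenitors that pass through a short Neurog3-positive phase and then take up a set of lasting transcription factors. Pdx1, Nkx6-1 and Mnx1 are homeodomain proteins known for β-cell identity, and Pax4 is a paired-domain protein that acts early on the β and δ side of the lineage. Neurod1, Isl1, Pax6, Nkx2-2, Rfx6 and Foxa2 work in several endocrine cell types, and the proteins regulate hormone genes and, in part, each other.

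The promoters of 4 members are shown because, among the members called between β and α cells over 6 stages, they had the largest log2 fold changes: 3 were higher in β cells and Isl1 was lower. Each line gives the 250 bases before the RefSeq transcription start on GRCm38.p6, from 5′ to 3′ on the gene's strand. Capitals mark E-boxes (CANNTG, read on both strands), the motif bound by basic helix-loop-helix factors such as Neurod1.
Pdx1, chr5:147269847-147270096, plus strand: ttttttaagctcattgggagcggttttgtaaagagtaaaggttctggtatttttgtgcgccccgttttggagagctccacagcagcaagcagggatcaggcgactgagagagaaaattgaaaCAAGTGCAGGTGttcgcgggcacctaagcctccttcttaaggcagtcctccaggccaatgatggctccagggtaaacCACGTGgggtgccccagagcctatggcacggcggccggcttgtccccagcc
Mnx1, chr5:29478471-29478720, minus strand: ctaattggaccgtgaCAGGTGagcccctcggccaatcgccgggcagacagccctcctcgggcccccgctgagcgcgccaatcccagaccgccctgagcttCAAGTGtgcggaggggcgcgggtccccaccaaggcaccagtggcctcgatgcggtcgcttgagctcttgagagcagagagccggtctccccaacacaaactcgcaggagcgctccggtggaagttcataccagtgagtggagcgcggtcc
Nkx6-1, chr5:101664712-101664961, minus strand: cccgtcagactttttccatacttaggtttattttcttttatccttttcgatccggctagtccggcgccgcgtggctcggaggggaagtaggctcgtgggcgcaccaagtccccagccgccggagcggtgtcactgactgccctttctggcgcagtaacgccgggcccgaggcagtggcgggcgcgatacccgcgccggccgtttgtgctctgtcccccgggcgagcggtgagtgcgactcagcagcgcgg
Isl1, chr13:116309689-116309938, minus strand: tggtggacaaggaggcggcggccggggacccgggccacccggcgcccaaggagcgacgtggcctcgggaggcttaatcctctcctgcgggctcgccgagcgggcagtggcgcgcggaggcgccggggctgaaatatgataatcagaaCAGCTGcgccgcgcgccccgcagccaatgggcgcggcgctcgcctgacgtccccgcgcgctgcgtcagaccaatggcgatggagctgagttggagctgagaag
The Pdx1 window held 3 E-boxes, of which 2 adjoin, the Mnx1 window held 2, the Isl1 window held 1 and the Nkx6-1 window held 0. Over all 32851 RefSeq promoters of this length, 66.2% held an E-box and the median was 1. The homeodomain core TAAT, read on both strands, was found 2 times in the Isl1 window, 1 time in the Mnx1 window and 0 times in the other 2, against 54.9% of all promoters with a match. The reference held 12 promoters for 9 of the 10 members, all but Pax4. A match describes the letters in these windows and nothing more.

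In the GENCODE annotation, whose gene starts can differ from those of RefSeq, Pdx1 lies on chromosome 5 of GRCm38 at 147269959-147275848, Nkx6-1 on chromosome 5 at 101658139-101664996, Mnx1 on chromosome 5 at 29473034-29478470 and Pax4 on chromosome 6 at 28442334-28449353. Nkx2-2, Neurod1, Pax6 and Foxa2 are on chromosome 2, Isl1 on chromosome 13 and Rfx6 on chromosome 10. Counts of 2 members share exon bases with a neighbour. Nkx2-2 shares 278 bases with the antisense gene Nkx2-2os. Neurod1 shares 201 bases with Cerkl on the same strand and 154 bases with Gm26755 on the opposite strand. The strand setting of the counting is not given in the sources used here. It bears on the overlaps with Nkx2-2os and Gm26755, so the Nkx2-2 and Neurod1 levels are uncertain to that extent. The overlap with Cerkl remains under any setting. Cerkl itself reached at most 55.0 CPM in a bulk library and 50.8 CPM in a batch, below the lowest Neurod1 level in each table.

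Levels are in counts-per-million units (CPM), over reads of the tested genes and after TMM scaling, a correction for the few genes that take a large share of a library. Bulk libraries held 10.3 to 21.4 M (mega) reads. Single-cell reads were added up within each batch, which held 5 to 39 cells and 5.96 to 49.1 M reads. Cell labels went with the defining hormones, which is in part a result of the selection. Cells were sorted by reporters of these hormone genes, and cells with both Ins1 and Gcg were left out of the batches. The hormone levels are therefore no independent check of the labels. Ins1 was 46851 to 245777 CPM in the β batches of the 6 shared stages, against 10.0 to 328 CPM in α batches. Gcg was 0 to 244 CPM in those β batches, against 65315 to 576188 CPM in α batches. Bulk libraries also held RNA of other cells, and it moved with stage: the summed level of 10 acinar enzyme genes was 1225 to 4067 CPM at E17.5, 193 to 716 CPM at P0 and 12735 to 52696 CPM from P3 to P60. In single β batches the same sum was at most 114 CPM. The sum of 5 α-cell markers was 615 to 14755 CPM in bulk libraries and highest at P15. In bulk libraries fewer cells of a type and less RNA per cell cannot be told apart.

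Set per kilobase of gene length, which allows genes to be ranked, Neurod1 had the highest level of the 10 in β cells, and Isl1 had the highest in α cells. In the 25 β batches Neurod1 averaged 106 ± 13.6 CPM per kb (SD), followed by Pax6 at 63.2 ± 12.4, Isl1 at 55.1 ± 12.1, Pdx1 at 50.1 ± 10.3, Nkx6-1 at 47.4 ± 14.4, Rfx6 at 37.5 ± 13.5, Foxa2 at 32.2 ± 5.92, Nkx2-2 at 21.1 ± 4.89, Mnx1 at 4.74 ± 3.15 and Pax4 at 0.367 ± 0.758 CPM per kb. Neurod1 stood apart from its neighbour by more than both SDs, as did the steps from Foxa2 to Nkx2-2, from Nkx2-2 to Mnx1 and from Mnx1 to Pax4. The neighbours from Pax6 down to Foxa2 did not differ beyond their spread. In the 20 α batches Isl1 averaged 125 ± 38.1 CPM per kb, followed by Neurod1 at 74.9 ± 18.4, Pax6 at 46.9 ± 11.3, Foxa2 at 34.6 ± 8.08, Rfx6 at 31.6 ± 9.53 and Nkx2-2 at 21.6 ± 5.19 CPM per kb. The next step down was the single one beyond the spread: Nkx6-1 averaged 3.83 ± 2.27 and Pdx1 1.16 ± 1.15 CPM per kb, with Pax4 and Mnx1 near 0. In the 14 bulk β libraries 7 members lay between 58.7 ± 11.8 (Rfx6) and 110 ± 39.2 (Nkx6-1) CPM per kb without a step beyond the spread, and Foxa2, Mnx1 and Pax4 stood below them at 36.0 ± 7.76, 24.0 ± 8.72 and 0.769 ± 1.52 CPM per kb.

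β cells were set against α cells at the 6 shared stages to see which members separate the cell types. Of the 10 members, 5 were higher in β cells (Mnx1, Pdx1, Nkx6-1, Neurod1 and Pax6), 1 was lower (Isl1), and Nkx2-2, Rfx6, Foxa2 and Pax4 did not pass an adjusted p of 0.05 in edgeR's quasi-likelihood test. Over all 18537 genes tested, 14.6% were called higher and 14.1% lower. The median log2 fold change was 0.50 over the members and -0.05 over all genes. Without TMM scaling, which moved the median of all genes by -0.38, 3 members were higher and 3 lower, beside 37.2% of all genes called. Neurod1 and Pax6 were no longer called, and Nkx2-2 and Foxa2 were lower.

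Pdx1, the homeodomain factor needed to form the pancreas and to drive insulin transcription, was 145 CPM at the lowest, 198 CPM at the median and 306 CPM at the highest of the 20 β batches, against 0, 3.78 and 17.7 CPM in the 20 α batches. The groups did not overlap at any of the 6 stages. The log2 fold change was 5.62 (SE 0.455), with an adjusted p of 1.16e-12 by edgeR. At P60, Pdx1 had 179, 215, 166, 193 and 191 CPM in β batches, against 2.51, 3.90, 0.890, 3.22 and 0 CPM in α batches, a log2 fold change of 6.50 (SE 0.83, adjusted p = 2.61e-07). At E17.5 it had 265, 279 and 238 CPM in β batches, against 17.7, 15.6, 5.06 and 6.67 CPM in α batches, a log2 fold change of 4.52 (SE 0.86, adjusted p = 0.000336). Every β batch was above every α batch at both stages. With FACS-sorted batches alone, 1 β batch and 3 α batches at E17.5, the log2 fold change there was 4.24 and its adjusted p 0.0546.

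Nkx6-1, a homeodomain repressor that keeps β cells from other endocrine fates, was 64.5, 107 and 179 CPM (lowest, median, highest) in β batches, against 3.13, 7.02 and 21.5 CPM in α batches. Again no α batch reached a β batch at any stage. The log2 fold change was 3.92 (SE 0.173, adjusted p = 6.6e-20). The mean α level was 7.02% of the mean β level at P60 and 10.8% at E17.5. For Pdx1 these shares were 1.11% and 4.32%, and for Ins1, whose RNA leads the β cells, they were 0.0319% and 0.3%. The α-cell shares of Nkx6-1 and Pdx1 were higher than that of Ins1 at both stages. Cells with both Ins1 and Gcg were left out of the α batches, which limits the Ins1 share. It is therefore no measure of how much β-cell RNA the α batches held.

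Mnx1, a homeodomain factor that β cells retain, was detected at 3.22, 7.55 and 30.5 CPM (lowest, median, highest) in the 20 β batches and was at or near 0 in α batches. In α cells 2 reads were counted in all, both at P0. Against the level that 3 reads in the pooled α cells of a stage would give, Mnx1 was at least 569-fold higher in β cells at E17.5, 275-fold at P9, 149-fold for cells of P15, 125-fold at P18 and 199-fold for cells of P60. At P0 the ratio was 209, with a 95% counting interval of 57.8 to 1723. These bounds cover counting error only, since PCR copies are not independent molecules. The adjusted p over the 6 stages was 5.0e-14 by edgeR, and Mnx1 passed the filter on low counts through the β batches where it is high.

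Isl1, a LIM-homeodomain factor that islet cells need for survival and hormone expression, ran the other way. It was 79.6, 154 and 186 CPM (lowest, median, highest) in β batches, against 153, 312 and 556 CPM in α batches, and every β batch lay below every α batch at 5 of 6 stages. The log2 fold change was -1.12 (SE 0.103, adjusted p = 2.93e-11). At P60 Isl1 had 120, 181, 116, 173 and 153 CPM in β batches, against 153, 260, 255, 264 and 333 CPM in α batches, and there the groups overlapped. The log2 fold change was -0.77 (SE 0.199, adjusted p = 0.00661). At E17.5 it had 129, 156 and 132 CPM in β batches, against 374, 349, 351 and 337 CPM in α batches, a log2 fold change of -1.32 (SE 0.251, adjusted p = 0.000356). With FACS-sorted batches alone the adjusted p was 0.221 at P60 and 0.095 at E17.5, with log2 fold changes of -0.81 and -1.40, and the E17.5 value rests on 1 β batch.

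Neurod1, a basic helix-loop-helix activator of the insulin gene and of the endocrine program, was 235, 294 and 385 CPM (lowest, median, highest) in β batches, against 127, 196 and 299 CPM in α batches. β and α batches did not overlap at 4 of 6 stages. The log2 fold change was 0.53 (SE 0.0799, adjusted p = 1.69e-06), and 0.19 without TMM scaling (adjusted p = 0.0887). Pax6, which activates both insulin and glucagon transcription, was 171, 273 and 390 CPM in β batches, against 149, 193 and 331 CPM in α batches, with no overlap at 3 of 6 stages. Its log2 fold change was 0.48 (SE 0.0753, adjusted p = 3.73e-06), and 0.15 without TMM scaling (adjusted p = 0.167). Both differences were thus small beside those of Pdx1 and Nkx6-1 and depended on the scaling.

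The remaining shared factors were not called between the 2 cell types. Nkx2-2, a homeodomain factor of β-cell fate and function, was 31.6, 45.6 and 78.0 CPM (lowest, median, highest) in β batches, against 26.6, 45.3 and 71.1 CPM in α batches, and the groups overlapped at all 6 stages. Rfx6, a winged-helix factor acting downstream of Neurog3, was 77.0, 133 and 241 CPM in β batches, against 36.2, 109 and 174 CPM in α batches. Foxa2, a forkhead factor that opens endodermal enhancers, was 52.4, 67.0 and 95.7 CPM in β batches, against 45.4, 69.3 and 111 CPM in α batches. The log2 fold changes were -0.01 (SE 0.109) for Nkx2-2, 0.24 (SE 0.126) for Rfx6 and -0.04 (SE 0.0993) for Foxa2, with adjusted p-values of 1, 0.164 and 0.923 by edgeR. These p-values do not show that the levels are equal.

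**Figure D1:**
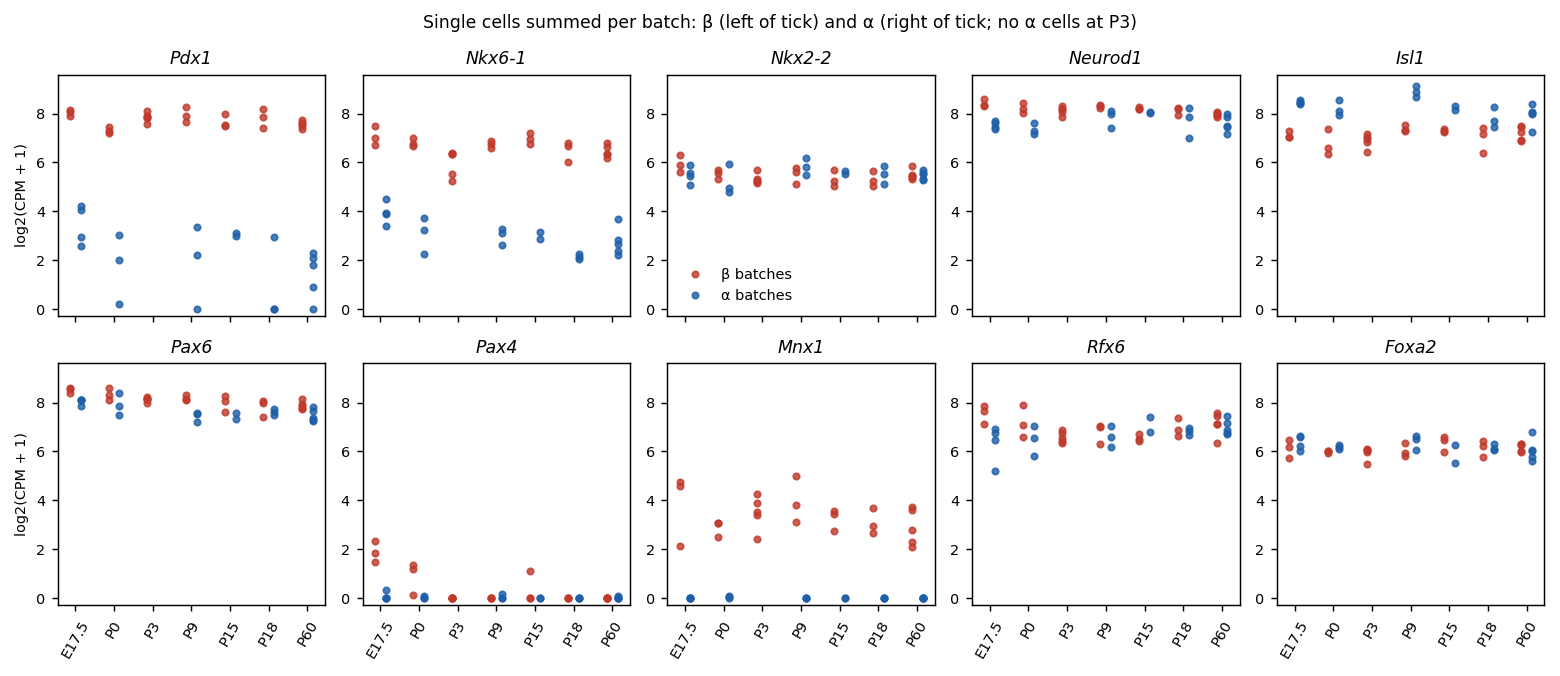
Log2(CPM + 1) of each member (vertical axis) by stage (horizontal axis) in single cells summed per batch, 1 point per batch, with 25 β batches in red and 20 α batches in blue. Pdx1, Nkx6-1 and Mnx1 points of β batches lie above those of α batches at all 6 shared stages, and Isl1 points of α batches lie above those of β batches at 5 of them.

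Single stages gave fewer calls. At P60, 3 members were higher in β cells (Mnx1, Pdx1 and Nkx6-1) and 1 was lower (Isl1), against 7.02% and 5.92% of all genes. At E17.5, 4 members were higher (the same 3 and Neurod1) and 1 was lower (Isl1), against 5.06% and 3.25% of all genes. The median log2 fold change over the members was 0.25 at P60 and 0.91 at E17.5, and over all genes -0.02 and -0.06. Neurod1 had 246, 242, 265, 257 and 235 CPM in β batches at P60, against 229, 249, 144, 180 and 175 CPM in α batches, which overlap. At E17.5 it had 329, 385 and 319 CPM in β batches, against 195, 176, 164 and 206 CPM in α batches, with a log2 fold change of 0.94 (SE 0.186, adjusted p = 0.000526). The call was lost without TMM scaling (0.59, adjusted p = 0.0679) and by limma with equal cell weights (0.67, adjusted p = 0.0651). The limma fit also used no TMM scaling, so these 2 settings are not independent. Within collection methods the E17.5 value was 0.87 in FACS-sorted batches (1 β and 3 α batches, adjusted p = 0.0497) and 0.77 in manually-picked ones (2 β batches and 1 α batch, adjusted p = 0.148). A lone batch was assumed to vary like the other groups.

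**Figure D2:**
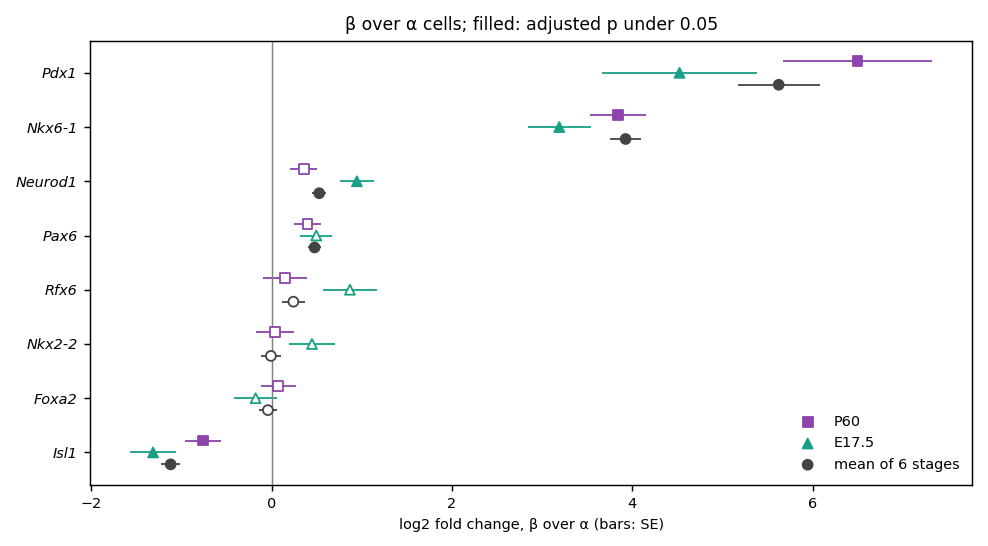
Log2 fold change of β over α cells (horizontal axis) for 8 members (vertical axis), with bars of 1 SE, at P60 (squares), at E17.5 (triangles) and as the mean over 6 stages (circles); filled symbols have an adjusted p under 0.05 by edgeR. Pdx1 and Nkx6-1 lie far to the right at 5.62 and 3.92 over 6 stages, Isl1 lies left of 0 at -1.12, and Mnx1 and Pax4, whose fitted ratios rest on groups at or near 0, are left out.

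In bulk β cells 2 of the 10 members were called between P60 and E17.5: Foxa2 was higher and Pax4 was lower at P60. Over all 16086 genes, 13.8% were called higher and 15.2% lower. The median log2 fold change was -0.28 over the members and -0.03 over all genes. Without TMM scaling, which moved the median of all genes by -0.46, 6 members were called, beside 39.6% of all genes. All 6 were lower, and Foxa2 was not among them. With the acinar level as a covariate no member was called by edgeR, beside 6.15% of all genes. The acinar sum moved with stage, so this fit cannot tell the 2 apart. The part of other cells' RNA in the calls of Foxa2 and Pax4 was not tested further.

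Pax4 was 0.0708 and 0 CPM in the bulk libraries at P60, against 4.98 and 6.76 CPM at E17.5. It stood at 0.804 and 0.346 CPM at P0 and was at most 0.507 CPM in every library from P3 on, so the 2 E17.5 libraries were far above the other 12. The log2 fold change at P60 was -7.14 (SE 1.16, adjusted p = 0.000988), and -6.39 with the acinar covariate (adjusted p = 0.065). Pax4 passed the filter on low counts through the libraries where it is high. Neurog3, which marks endocrine progenitors, was 2.24 to 2.27 CPM at P60, against 18.9 to 22.9 CPM at E17.5, and Ghrl, the hormone of ε cells, was 0 to 0.283 CPM, against 55.5 to 92.9 CPM. The part of such cells in the Pax4 values was not tested. Foxa2 had 124 and 85.3 CPM at P60, against 59.1 and 65.7 CPM at E17.5. The P60 libraries did not overlap those of E17.5, and the log2 fold change was 0.74 (SE 0.186, adjusted p = 0.0116). It was 0.46 without P60 library 1 (adjusted p = 0.113), 0.67 without E17.5 library 1 (adjusted p = 0.0851) and 0.32 without TMM scaling (adjusted p = 0.204).

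Mnx1, higher in the middle of the series, was called among the bulk stages. It had 33.6 and 60.9 CPM at E17.5, 26.3 and 30.2 at P0, 75.8 and 83.1 at P3, 64.7 and 80.3 at P9, 58.2 and 62.0 at P15, 57.6 and 57.0 at P18, and 37.0 and 28.3 CPM at P60. The libraries of P0 and P60 lay below every library of P3 to P18. An edgeR test for any difference among the 7 stages called it (adjusted p = 0.00444), and P60 against P9 gave a log2 fold change of -1.15 (SE 0.241, adjusted p = 0.0104). That call was lost without P9 library 2 (-0.93, adjusted p = 0.0674) or without P60 library 2 (-0.94, adjusted p = 0.112).

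Pdx1 had its lowest bulk levels at P0. It had 356 and 453 CPM at E17.5, 192 and 221 at P0, 450 and 450 at P3, 356 and 434 at P9, 383 and 323 at P15, 421 and 334 at P18, and 371 and 284 CPM at P60. Both P0 libraries lay below all 12 others. The any-stage test called it (adjusted p = 0.0192), but not without either P0 library or with the acinar covariate (adjusted p = 0.14), and the acinar sum was also at its lowest at P0. In single β batches P0 had 172, 156 and 145 CPM, below every batch of E17.5, P3, P9 and P15. The any-stage test there did not call Pdx1 (edgeR unadjusted p = 0.976). That fit estimated the spread of each gene over β and α batches together. With β batches alone Pdx1 was not called either, while limma with equal cell weights and without TMM scaling called it.

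Of the 10 members 3 were called for any difference among bulk stages (Mnx1, Pdx1 and Pax4), against 31.2% of all genes. Pax4 passed the filter on low counts through the E17.5 libraries, where it is high, and this limits each of its calls here. Between P9 and E17.5 only Pax4 was called, lower at P9 with 0.142 and 0.507 CPM, against 4.98 and 6.76 CPM at E17.5 (log2 fold change -4.25, SE 0.906, adjusted p = 0.0145), while 4.69% of genes were called higher and 3.49% lower. The call was lost without P9 library 1 (adjusted p = 0.138) or either E17.5 library (adjusted p = 0.0654 and 0.11). Between P60 and P9 Foxa2 was called higher and Mnx1 lower, against 6.79% and 9.43% of all genes. Foxa2 had 124 and 85.3 CPM at P60, against 64.1 and 72.6 CPM at P9 (log2 fold change 0.61, SE 0.186, adjusted p = 0.0442). It was not called without P60 library 1 (0.36, adjusted p = 0.251), either P9 library (adjusted p = 0.218 and 0.071) or TMM scaling (0.40, adjusted p = 0.171). The acinar covariate (0.61, adjusted p = 0.0652) and the replicate block (0.61, adjusted p = 0.0556) also lost the call. The median log2 fold change over the members was 0.06 for P9 against E17.5 and -0.28 for P60 against P9, and over all genes 0.00393 and -0.0275.

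The other 6 members were not called in any bulk comparison. Nkx6-1 ranged from 130 to 446 CPM over the 14 libraries, and libraries of the same stage lay far apart, with 446 and 218 CPM at P60 and 145 and 311 CPM at P3. Neurod1 ranged from 204 to 365 CPM, with 206 and 213 CPM at E17.5, 308 and 365 CPM at P3, and 231 and 204 CPM at P60. Isl1 ranged from 128 to 252 CPM with its lowest libraries at P0. Pax6 ranged from 335 to 552 CPM, Nkx2-2 from 133 to 251 CPM and Rfx6 from 137 to 266 CPM. Both P60 libraries lay below both E17.5 libraries for Isl1 and Pax6, and the stages overlapped for the other 4.

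**Figure D3:**
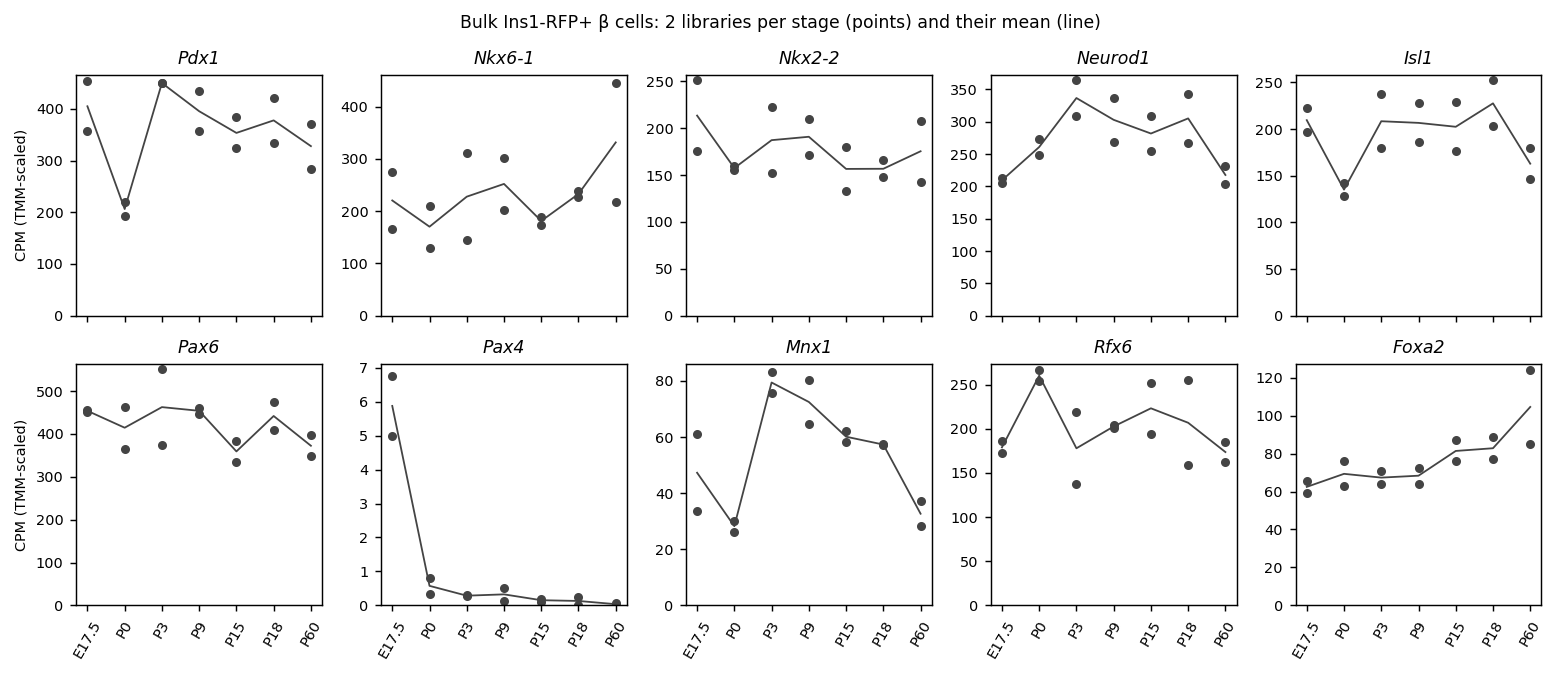
CPM (vertical axis, its range set for each gene) of the 10 members by stage (horizontal axis) in 14 bulk β libraries, with 2 points per stage and a line through their means. Pax4 is high at E17.5 alone, Pdx1 has its lowest points at P0, Mnx1 is lower at P0 and P60 than from P3 to P18, and Foxa2 has its highest point at P60, at 124 CPM.

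In single β cells 2 members were lower at P60 than at E17.5, Pax6 and Pax4, and 0 were higher, against 3.89% and 3.08% of all genes. The median log2 fold change was -0.47 over the members and -0.01 over all genes. Pax6 had 278, 245, 228, 218 and 210 CPM in β batches at P60, against 337, 390 and 376 CPM at E17.5. The groups did not overlap, and the log2 fold change was -0.64 (SE 0.165, adjusted p = 0.0105). It was -0.58 without E17.5 batch 2 (adjusted p = 0.0704), and -0.61 in FACS-sorted batches (adjusted p = 0.301) and -0.65 in manually-picked batches (adjusted p = 0.154) alone. Pax4 had 0 reads in all 5 P60 batches, against 2.61, 1.80 and 4.09 CPM at E17.5. Taking 3 reads in the pooled P60 cells as the floor, the P60 level was lower by at least 101-fold. This bound covers counting error only, and 1 cell gave 128 of the 240 reads at E17.5 (53.3%). The adjusted p was 0.0113 by edgeR and 0.276 by DESeq2, and 0.387 in FACS-sorted and 0.218 in manually-picked batches alone; Pax4 passed the filter through the batches where it is high. The summed level of 4 δ-cell markers was 3.78 to 25.4 CPM in β batches at P60, against 846 to 1042 CPM at E17.5, and its part in both calls was not tested.

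The direction of the other members in single β cells is given as values, since none was called. Pdx1 had 179, 215, 166, 193 and 191 CPM at P60, against 265, 279 and 238 CPM at E17.5, which did not overlap (log2 fold change -0.46, SE 0.728). Neurod1 had 246, 242, 265, 257 and 235 CPM at P60, against 329, 385 and 319 CPM at E17.5, which did not overlap either (log2 fold change -0.48, SE 0.175, adjusted p = 0.0952). These SEs rest on a spread estimated over β and α batches together. With β batches alone Neurod1 was called and Pdx1 was not. Nkx6-1 had 110, 97.7, 81.1, 81.1 and 72.7 CPM at P60, against 104, 179 and 129 CPM at E17.5, which overlapped. Mnx1 had 3.22, 12.4, 3.94, 11.3 and 5.80 CPM at P60, against 25.6, 22.7 and 3.39 CPM at E17.5, with 1 E17.5 batch among the P60 values. Foxa2 had 77.5, 62.7, 62.9, 76.6 and 78.7 CPM at P60, against 52.4, 88.2 and 70.6 CPM at E17.5, a log2 fold change of 0.01 (SE 0.222) where the bulk value was 0.74. Foxa2 was thus called in bulk libraries and not in single β cells, and the difference between the assays was not tested. Pax4 passed the filter on low counts through the batches where it is high. Among all 7 stages Pax4 alone was called in single β cells (edgeR adjusted p = 0.00487), against 7.09% of all genes, and Pax6 had an adjusted p of 0.057. DESeq2 called Pax6 and not Pax4 in this test, and neither was called in FACS-sorted or manually-picked batches alone (0.31 and 0.335 for Pax4).

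In α cells 3 members were lower at P60 than at E17.5, Nkx6-1, Pax6 and Pdx1, and 0 were higher, against 5.66% and 4.3% of all genes. The median log2 fold change was -0.36 over the members and -0.00276 over all genes. Nkx6-1 had 6.12, 11.9, 5.34, 4.13 and 3.60 CPM in α batches at P60, against 14.2, 14.0, 9.45 and 21.5 CPM at E17.5. The highest P60 batch reached above the lowest E17.5 batch, and the log2 fold change was -1.28 (SE 0.304, adjusted p = 0.00453). Pdx1 had 2.51, 3.90, 0.890, 3.22 and 0 CPM at P60, against 17.7, 15.6, 5.06 and 6.67 CPM at E17.5, with no overlap and a log2 fold change of -2.44 (SE 0.766, adjusted p = 0.0355). Ins1 in α batches had 24.9, 30.9, 119, 14.1 and 130 CPM at P60, against 328, 228, 116 and 85.3 CPM at E17.5, and the summed level of 5 β-cell markers was 503 to 1234 CPM at P60, against 1573 to 3772 CPM at E17.5. The sum of 4 mesenchymal markers was 0 to 14.4 CPM at P60, against 50.1 to 106 CPM at E17.5. The part of these in the α results was not tested.

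Pax6 in α batches had 228, 150, 155, 199 and 166 CPM at P60, against 277, 278, 274 and 233 CPM at E17.5. The groups did not overlap, and the log2 fold change was -0.55 (SE 0.155, adjusted p = 0.0185). All 3 α calls were lost when only α batches were fitted, with adjusted p-values of 0.142 for Nkx6-1, 0.0584 for Pax6 and 0.49 for Pdx1, and with 1 collection method alone. In FACS-sorted and in manually-picked batches the log2 fold changes were -1.36 and -1.62 for Nkx6-1, -0.48 and -0.50 for Pax6, and -3.30 and -1.36 for Pdx1. Nkx6-1 was also lost without E17.5 batch 4 (adjusted p = 0.0505), Pax6 without P60 batch 2 or 5 (adjusted p = 0.0552 and 0.0559), and Pdx1 without any of 5 batches (adjusted p-values of 0.0584 to 0.0885), namely E17.5 batches 1 and 2 and P60 batches 1, 3 and 5.

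Over the 6 α stages Nkx6-1, Pax6 and Isl1 were called for any difference (adjusted p = 0.00159, 0.0231 and 0.0254), against 10.5% of all genes. Isl1 in α batches had 374, 349, 351 and 337 CPM at E17.5, 246, 375 and 277 at P0, 556, 470 and 406 at P9, 317 and 284 at P15, 306, 207 and 174 at P18, and 153, 260, 255, 264 and 333 CPM at P60. All 3 P9 batches lay above every other α batch. Isl1 was lost from this test without P9 batch 2 or 3 or without P18 batch 2 (highest adjusted p = 0.103), and Pax6 without any of 3 batches (highest adjusted p = 0.0529). All 3 calls were lost with α batches alone and with either collection method alone, and Isl1 was also lost with the replicate block (adjusted p = 0.07).

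The change from E17.5 to P60 was also compared between the cell types, as the β change minus the α change. edgeR called 0 of the 10 members, against 1.65% of genes higher and 2.02% lower, and DESeq2 called 0. At an unadjusted p under 0.05 there were 2, Neurod1 and Pax4. The difference was 1.97 for Pdx1 (SE 1.08, adjusted p = 0.385), 0.65 for Nkx6-1 (SE 0.443, adjusted p = 0.533), 0.55 for Isl1 (SE 0.314, adjusted p = 0.416) and -0.59 for Neurod1 (SE 0.241, adjusted p = 0.184), all on the log2 scale. The median was -0.25 over the members and 0.00177 over all genes. A call in α cells and none in β cells is therefore not shown to be a difference between them.

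**Figure D4:**
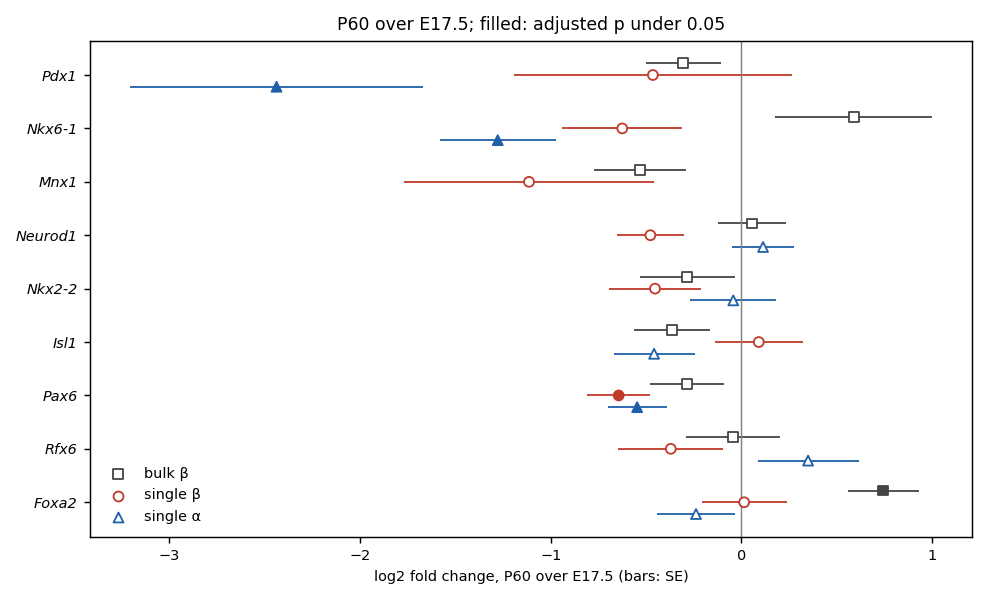
Log2 fold change of P60 over E17.5 (horizontal axis) of 9 members (vertical axis), with bars of 1 SE, in bulk β libraries (squares), single β batches (circles) and single α batches (triangles); filled symbols have an adjusted p under 0.05 by edgeR. Pax6 is left of 0 in all 3 sets and filled in both single-cell sets, Pdx1 and Nkx6-1 are filled in α cells at -2.44 and -1.28, and Foxa2 is filled in bulk at 0.74; Pax4 and the α value of Mnx1, at or near 0, are left out.

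Per cell, a member was counted as detected with at least 1 read, at a median depth of 1.15 M reads per cell. Pdx1 and Nkx6-1 were detected in all 538 β cells. In α cells Pdx1 was detected in 41.5% of cells at E17.5 (27 of 65, Wilson 95% interval 30.4% to 53.7%), 17.4% at P0, 20.0% in cells of P9, 24.4% at P15, 6.82% in cells of P18 and 7.23% at P60 (6 of 83, interval 3.36% to 14.9%). For Nkx6-1 these shares were 78.5%, 50.0%, 44.4%, 42.2%, 36.4% and 34.9%. The lowest Nkx6-1 share in α cells, at P60, thus lay above the Pdx1 shares of all stages but E17.5. The median α cell had 1.18 M reads at P60 and 1.01 M reads at E17.5, and intervals cover counting error only.

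Mnx1 was the β factor with the least even detection. By stage, Mnx1 reads were found in 56.1% (E17.5), 38.0% (P0), 60.2% (P3), 60.0% (P9), 45.6% (P15), 46.5% (P18) and 38.8% (P60) of β cells. Batches of the same stage ran from 33.3% to 71.0% at E17.5, 47.1% to 80.0% at P3 and 28.2% to 57.1% at P60. Differences between the stage shares were not tested. In all, Mnx1 was found in 260 of 538 β cells (48.3%, Wilson 95% interval 44.1% to 52.5%, counting error only). With at least 10 reads the share was 35.1%. In α cells it was found in 2 of 328 cells, at 1 read each. Among the shared factors, detection in β cells and in α cells was 100% and 98.8% for Neurod1, 100% and 99.7% for Pax6, 99.4% and 99.7% for Nkx2-2, 98.5% and 99.7% for Isl1, 98.0% and 94.5% for Rfx6, and 94.4% and 90.9% for Foxa2. Each shared factor was thus found in 90.9% or more of the cells of either type when all stages were pooled. By stage, Foxa2 was found in 100% of α cells at E17.5, 79.5% at P18 and 86.7% at P60.

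**Figure D5:**
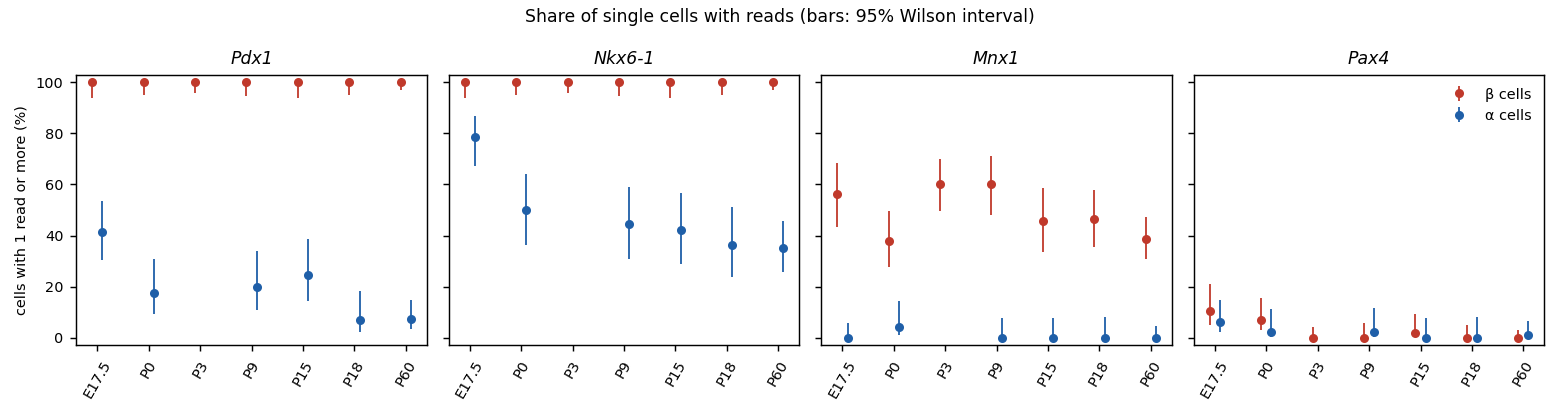
Share of single cells with at least 1 read (vertical axis, percent) by stage (horizontal axis) for Pdx1, Nkx6-1, Mnx1 and Pax4 in β cells (red) and α cells (blue), with Wilson 95% intervals. Pdx1 and Nkx6-1 are at 100% in β cells, while their α shares are highest at E17.5, at 41.5% and 78.5%.

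Combinations within a cell were counted at 10 or more reads per gene. Pdx1 and Nkx6-1 were found together in 529 of 538 β cells (98.3%), against 26 of 328 α cells (7.93%). Of these 26 α cells, 17 were among the 65 at E17.5 and 1 was among the 83 at P60. Pdx1, Nkx6-1 and Mnx1 were found together in 187 β cells (34.8%), against 0 of 328 α cells. All 6 shared factors were found together in 419 β cells (77.9%), against 242 α cells (73.8%). At E17.5 they were together in 49 of 57 β cells (86.0%), against 62 of 65 α cells (95.4%). At P60 this held for 97 of 129 β cells (75.2%), against 50 of 83 α cells (60.2%). The median number of the 10 members per cell was 8 in β cells, against 6 in α cells.

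The 23 α cells of E17.5 with 10 or more Pdx1 reads were set beside the 42 with fewer, as a description. Median Gcg was 123294 CPM in cells with Pdx1 reads, against 137160 CPM in the others. Median Ins1 was 48.2 CPM in cells with Pdx1 reads, against 23.3 CPM in the others, and median Nkx6-1 was 19.4 CPM, against 20.8 CPM. Median Ppy, the hormone of PP cells, was 532 CPM in cells with Pdx1 reads, against 293 CPM in the others. The ranges overlapped for all 4 genes. At P0, P9, P15, P18 and P60, 6, 5, 8, 3 and 5 α cells had 10 or more Pdx1 reads. Median Ppy in these cells was 1147, 2042, 9438, 5965 and 1217 CPM, against 1073, 248, 182, 236 and 119 CPM in the others. The Ppy ranges overlapped at each of these stages, and the gaps were not tested.

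Pax4 RNA was rare and early. Among β cells it was found in 6 of 57 cells at E17.5 (10.5%, Wilson 95% interval 4.91% to 21.1%), 5 of 71 at P0, 1 of 57 at P15 and 0 cells at the other stages. Counts of 0 allow a share of up to 3.41% at P3, 4.62% at P9, 4.23% at P18 and 2.33% at P60, which limits cells with a read and not cells that express the gene. The 12 cells held 379 reads, of which 1 cell gave 128. In α cells 7 of 328 had Pax4 reads, 1 read each, and 4 of these were among the 65 cells of E17.5 (6.15%, interval 2.42% to 14.8%). All 4 were cells of α E17.5 batch 3, which held 8 cells, and batches 1, 2 and 4 had 0. At 1 read the intervals of the β and α shares of E17.5 overlapped. They cover counting error only and leave out the spread between batches. With 10 or more reads Pax4 was found in 5 of 57 β cells, against 0 of 65 α cells at that stage. Neurog3 reads were found in 1 of the 6 Pax4-positive β cells of E17.5, against 0 of the other 51, and in 3 of 5 at P0, against 4 of the other 66.

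Other genes of the network were described from 3 lists. Of 22 other islet transcription factors, 11 were lower and 1 was higher among 21 tested at P60 than at E17.5 in bulk β cells (15.2% and 13.8% of all genes), with a median log2 fold change of -0.93 beside -0.28 for the 10 members. Sox9, a factor of pancreatic progenitors and duct cells, averaged 1.95 ± 0.853 CPM at P60, against 40.2 ± 20.4 CPM at E17.5 (SD, n = 2 each, log2 fold change -4.37, SE 0.468, edgeR adjusted p = 7.39e-05). In single β cells 9 were lower and 0 higher (3.89% and 3.08% of all genes), with Sox9 at 0.0253 ± 0.0386 CPM at P60 (n = 5), against 45.3 ± 44.0 CPM at E17.5 (n = 3). In α cells 6 were lower and 0 higher (5.66% and 4.3% of all genes), among them Hnf4a and Sox9. Between β and α cells 3 were higher and 7 lower over the 6 stages (14.6% and 14.1% of all genes). Pou3f4, a POU-domain factor of α cells, was 0.412 ± 0.724 CPM in β batches, against 27.3 ± 23.8 CPM in α batches (n = 20 each).

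The second list held 12 partners and cofactors, such as the E proteins that pair with Neurod1 and the Tle corepressors. In bulk β cells 4 were lower at P60 than at E17.5 and 0 higher, where 15.2% and 13.8% of all genes were, with Tcf3 at 33.4 ± 8.31 CPM at P60, against 66.8 ± 21.3 CPM at E17.5 (n = 2 each). In single β cells edgeR called 0 of the 12 (3.89% of all genes lower and 3.08% higher), and 4 had an unadjusted p under 0.05. In α cells Ssbp3, a partner of the Isl1 cofactor Ldb1, was the 1 gene called, lower at P60 (17.4 ± 4.16 CPM, n = 5, against 43.8 ± 5.85 CPM at E17.5, n = 4), beside 5.66% of all genes. Between β and α cells 2 were higher and 4 lower over 6 stages, beside 14.6% and 14.1% of all genes. Tcf12, an E protein, averaged 23.6 ± 8.34 CPM in β batches, against 41.8 ± 10.1 CPM in α batches (n = 20 each, log2 fold change -0.87, SE 0.131, edgeR adjusted p = 1.43e-06).

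The third list held 13 known target genes of these factors in β cells. In bulk β cells 9 were higher and 2 lower at P60 than at E17.5 (13.8% and 15.2% of all genes), with a median log2 fold change of 1.36. Ucn3, a peptide of mature β cells, averaged 565 ± 37.9 CPM at P60, against 33.1 ± 1.36 CPM at E17.5 (n = 2 each). In single β cells 5 were higher and 1 lower (3.08% and 3.89% of all genes), with Ero1lb at 2442 ± 407 CPM at P60 (n = 5), against 840 ± 124 CPM at E17.5 (n = 3). In α cells 3 were higher and 2 lower (4.3% and 5.66% of all genes). Between β and α cells 11 were higher and 0 lower over 6 stages (14.6% and 14.1% of all genes), with a median log2 fold change of 5.30, and for the β change minus the α change 4 were higher (1.65% of all genes), Glp1r, Iapp, Ins1 and Ucn3. In bulk β cells 11 of 13 target genes were called between P60 and E17.5, beside 2 of the 10 members, and the difference between these counts was not tested. Both sets were chosen with earlier results of these data known, so the contrast is a description only.

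The genes most like each member were found by Pearson correlation of log2 levels, as a description. Over the 45 batches and 7800 genes, Fam151a was most like Pdx1 (r = 0.96) and Nkx6-1 (r = 0.96), and Adra2a was most like Mnx1 (r = 0.95). Rnf130 was most like Isl1 (r = 0.88), Erp29 was most like Pax6 (r = 0.82) and Dcx most like Neurod1 (r = 0.79). The 45 batches fall into 2 cell types, so these r values carry the gap between them. Members without such a gap had weaker neighbours, Pnpla2 for Rfx6 (r = 0.65), Aak1 for Nkx2-2 (r = 0.55) and Ube3a for Foxa2 (r = 0.53). Over the 14 bulk libraries and 9123 genes, Mtfp1 was most like Pdx1 (r = 0.94), Per3 most like Neurod1 (r = 0.92), Ap1m2 most like Pax4 (r = 0.90) and Herc3 most like Mnx1 (r = 0.88). No gene was among the 3 most like a member in both assays.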

How the data were processed

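The values are read counts per gene that the authors deposited, 1 table for the 14 bulk libraries and 1 for the 917 single cells. The submitters' processing notes name TopHat2 2.1.0, HTSeq 0.6.0 and DESeq 1.20.0 with GRCm38 and mm10, without saying which setting was used for strand. The 92 spike-in rows, with 2.72% of the reads in the median cell, were left out of library sizes and tests. Single-cell reads were summed per batch, so that the batch is the replicate, and 0 columns lacked a sample.

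Counts were tested in edgeR 4.0.16 (R 4.3.3) with TMM scaling, its default filter on low counts, the quasi-likelihood test and Benjamini-Hochberg adjustment over all genes tested, at an adjusted p of 0.05. The bulk fit held 14 libraries and 16086 genes. The single-cell fit held 45 batches and 18537 genes, with collection method (FACS-sorted or manually-picked) as a covariate. All 10 members passed the filter. The scripts were tested on simulated data. Alternatives used DESeq2 1.42.0, limma 3.58.1, other filters and scaling, subsets of batches, an acinar covariate for bulk libraries and fits without each library or batch. The limma fit used log2 CPM averaged over the cells of a batch, without TMM scaling. The members and lists were chosen with earlier results of these data known.

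Genes named from the lists are among the 2 called with the smallest p per comparison at 5 CPM or more in the higher group, or among the few called where a count was small; not every such gene is named. Some genes of the lists are not reported here by name. For likeness, the 3 genes with the highest r were taken among those with a mean of 10 CPM or more. Correlations of deviations between libraries with the same replicate number had a median of 0.0105 in bulk (range -0.256 to 0.396) and 0.0173 in single cells, so numbers were not used to pair samples.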

Additional observations from a re-analysis of the deposited data

Results flagged for a closer look

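Over 36 combinations of a member and a group of 4 or 5 batches, 7 values lay far from the other batches of their group. The rule gives about 1 in 20 by chance. The share flagged over all genes was not computed, so the 7 are not shown to be an excess. Nkx2-2 was highest at 50.2 CPM in β P3 batch 4 and at 57.6 CPM in β P60 batch 2. Pax6 was lowest at 233 CPM in α E17.5 batch 4. Foxa2 was lowest at 44.4 CPM in β P3 batch 5 and highest at 111 CPM in α P60 batch 5. Pax4 was 0.27 CPM in α E17.5 batch 3 and 0.0545 CPM in α P60 batch 5, with 0 in the other batches of each group. These Pax4 values rest on 4 reads and 1 read. With 0 in every other batch, any read at all meets the rule.

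Selected cells outside the comparisons gave 11 of 30 member values above every unselected β batch of their stage. These are pooled CPM without TMM scaling and with no test. The share over all genes was not computed, so the 11 are not shown to be particular to the members. Of the 11, 8 came from the 4 Ngn3-GFP+ cells at P0, labelled hormone-negative but with Ins1 reads in all 4 (49.0 to 8447 CPM). Pooled Ins1 was 2174 CPM in these cells, against 137723 CPM in unselected β cells of P0. The part of this gap in the unscaled values was not tested. Pdx1 was 454 CPM in the Ngn3-GFP+ cells, against at most 194 CPM in unselected β batches of P0. Nkx6-1 was 196 CPM, against at most 135 CPM. Neurod1 was 959 CPM, against at most 359 CPM. Pax6 was 610 CPM, against at most 515 CPM, and Nkx2-2 was 103 CPM, against at most 52.9 CPM. Foxa2 was 163 CPM, against at most 84.6 CPM, and Mnx1 was 18.1 CPM, against at most 9.84 CPM. Pax4 was 30.5 CPM, against at most 1.63 CPM, and its reads came from 1 of the 4 cells.

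In β cells enriched for proliferation, Pdx1 was 201 CPM at P0, against at most 194 CPM in unselected batches. Foxa2 was 102 CPM at P0, against at most 84.6 CPM, and 69.7 CPM at P9, against at most 62.4 CPM. Other values of these enriched cells lay below every unselected batch of their stage. At P0 these were Nkx2-2 at 33.8 CPM (lowest batch 49.3), Neurod1 at 292 CPM (lowest batch 305) and Pax4 at 0 CPM (lowest batch 0.104). At P9 they were Nkx6-1 at 58.1 CPM (lowest batch 80.0) and Neurod1 at 246 CPM (lowest batch 253).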

How the results depend on the processing

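Of 250 counts of called members recomputed under alternatives, 205 stayed within 1.5 times the reported count. Of 1183 log2 changes, 1027 kept direction and call, 48 lost the call, 49 gained it, 4 turned round with a call and 55 changed sign with a call in neither fit. The β against α calls over 6 stages gave 6 members without any 1 batch; the call count was 5 to 6 at E17.5 and 4 to 5 at P60, and 3 at E17.5 with FACS-sorted batches.

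Stage calls moved more, and the share of all genes called moved as well. For bulk P60 against E17.5 that share was 21.1% with no filter, 6.15% with the acinar covariate and 39.6% without TMM scaling. For single β P60 against E17.5 it was 12.3% by DESeq2, 25.2% by limma and 23.2% without TMM scaling. For α P60 against E17.5 it was 41.6% by limma, 6.69% with α batches alone and 26.3% without TMM scaling. Since limma was also run without TMM scaling, its counts and those without TMM scaling are not independent. Fits on 1 collection method leave some groups with 1 batch. For bulk P60 against E17.5 (2 members called), 4 were called with no filter, 0 with the acinar covariate, 6 without TMM scaling and 1 to 2 without 1 library. For P9 against E17.5 (1), DESeq2 and no filter gave 2 each, the covariate 0 and leaving out 1 library 0 to 1. For P60 against P9 (2), the covariate gave 1 and leaving out 1 library 0 to 1. Among all bulk stages (3), DESeq2 gave 6, no filter 7 and leaving out 1 library 2 to 4. For single β P60 against E17.5 (2), DESeq2 gave 1, limma with equal cell weights 8, FACS-sorted batches 0, manually-picked batches 0, no TMM scaling 9 and leaving out 1 batch 1 to 2. Among all β stages (1) the counts were 7 by limma, 0 in either collection method, 3 with β batches alone, 6 without TMM scaling and 1 to 2 without 1 batch. For α P60 against E17.5 (3) they were 7 by limma, 0 in FACS-sorted batches, 1 in manually-picked batches (Rfx6), 0 with α batches alone, 7 without TMM scaling and 1 to 3 without 1 batch. Among all α stages (3) they were 7, 0, 0, 0, 6 and 2 to 4 in the same settings. For the β change minus the α change (0), limma gave 1 (Pax4), manually-picked batches 1 (Rfx6) and leaving out 1 batch 0 to 0.

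The replicate block, from numbers that did not pair the samples, lowered bulk P60 against P9 to 1 call (Foxa2 0.61, edgeR adjusted p = 0.0556). It lowered all α stages to 2 calls (Isl1 lost, edgeR adjusted p = 0.07). Of all genes, 15.7% and 7.95% were called there. Among all bulk stages the share of all genes was 43.1% by DESeq2 and 31.3% with no filter. Among all β stages it was 23% by limma, 10.4% with β batches alone and 22.2% without TMM scaling. Among all α stages it was 41.5%, 4.68% with α batches alone and 27% in the same settings.

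The 4 that turned round were Foxa2 (-0.78, adjusted p = 0.00564) and Isl1 (-0.69, adjusted p = 0.0135) in single β P60 against E17.5 without TMM scaling, and Neurod1 in α P60 against E17.5 by limma (-0.96, adjusted p = 0.00095) and without TMM scaling (-0.65, adjusted p = 0.00758). Without TMM scaling the median of all genes moved by -0.76 in β and -0.73 in α cells, 9 β members were lower and 0 higher, 7 α members were lower and 0 higher, and β against α gave 3 higher and 1 lower at both P60 and E17.5. The limma fit used no TMM scaling either, and its median log2 fold change of all genes was -0.223 in β and -0.407 in α cells. The causes were not tested. Manually-picked batches alone, no TMM scaling and keeping the full fit's dispersion trend for left-out batches were chosen after seeing the data. A TPM scale for levels between genes was not run. Single stages hold 2 bulk libraries or 2 to 5 batches, and Mnx1 and Pax4 rest on few reads.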

Other observations

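The cells with more than 1 hormone enter no comparison, and their values are pooled CPM without TMM scaling. In 11 Ins1+ Sst+ cells Pdx1 was 149 CPM (54.7 to 224 per cell) and Nkx6-1 was 72.4 CPM, and both were found in all 11 cells. Isl1 was 433 CPM there, and Mnx1 was 5.23 CPM with reads in 6 cells. In 5 Ins1+ and Gcg+ cells Pdx1 was 94.7 CPM, with 17.8 to 210 CPM per cell, Nkx6-1 was 39.2 CPM and Mnx1 was 0. In 5 Gcg+ Ghrl+ cells Pdx1 was 3.69 CPM with reads in 1 cell, Nkx6-1 was 1.58 CPM, Mnx1 was 0 and Isl1 was 716 CPM. Neurod1 was 225 CPM in Ins1+ Sst+ cells, 293 CPM in Ins1+ and Gcg+ cells and 288 CPM in Gcg+ Ghrl+ cells, and Pax4 had 0 reads in all 3 sets.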
